A study of Homo sapiens with 6 samples.

Results

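The genes described here act in mitosis, the step in which a cell separates its copied chromosomes. Cyclins A2, B1 and B2 with the kinase CDK1 drive entry into mitosis, motor proteins and microtubule binding proteins build the spindle, kinetochore proteins hold each chromosome to it, and the spindle checkpoint delays separation until all chromosomes are attached. Transcripts of these genes accumulate in the G2 and M phases of the cell cycle and are abundant in dividing tumor cells, so they serve widely as markers of proliferation in breast cancer. Many of their promoters carry a cell cycle genes homology region, or CHR, close to the start of transcription and CCAAT boxes further upstream. These elements are bound by the DREAM and MMB complexes and by the factor NF-Y.

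The list held 60 genes, chosen for roles in the spindle, the kinetochore, condensin, cytokinesis and the control of G2 and M. A probe set with a single gene symbol was found for 47 of them, and each of the 47 had 1 such probe set, so choosing the brightest probe set of a gene left nothing out. These 47 were among 14884 genes with a named probe set. The other 13, which include CENPE, CENPF, TPX2, ASPM, ANLN and UBE2C, were not analysed here. The 47 genes lie on 19 chromosomes, with at most 6 on any of them, and 46 of the 47 had a mean signal in the brighter part of the named probe sets, above the median.

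RNA came from MDA-MB-231-Luc-D3H1 cells, a luciferase-expressing derivative of the triple-negative human breast cancer line MDA-MB-231. The study asked how loss of LincIN, a long non-coding RNA, alters these cells, and compared stable lines carrying the empty GFP vector (vector) with stable lines carrying either of 2 short hairpin RNAs against LincIN, shRNA1 and shRNA2, in the same plasmid. Each group had 2 Human Gene 2.0 ST arrays, 6 in all, from RNA collected in separate experiments. Nothing states whether a line was grown from 1 clone or from a pool, so differences between lines that do not come from the hairpin cannot be told apart from its effect. LincIN itself has no named probe set and its knockdown was not checked on these arrays.

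Values are RMA signals on the log2 scale, in which a difference of 1 is a doubling. They ran from 1.79 to 14.83 over the 6 arrays, array medians lay between 6.12 and 6.30, and the lowest correlation between any pair of arrays was 0.961. Neither a depth nor a detection call comes with the values, and precision is limited by how few arrays there are. Of 7 markers of MDA-MB-231 cells, 6 were measured, and VIM, CD44, EGFR, AXL, FOSL1 and MSN lay between 10.60 and 13.14 on all arrays. Of 8 luminal epithelial markers 6 were measured: the estrogen receptor ESR1 lay between 5.71 and 6.17, PGR between 4.65 and 4.93 and FOXA1 between 4.99 and 5.23, whereas KRT19 lay between 9.38 and 10.33, GATA3 between 7.78 and 9.02 and EPCAM between 7.46 and 9.02. EPCAM was 1.16 higher with shRNA2 than with shRNA1. The 2 fibroblast markers measured of 7, DCN and LUM, lay between 3.65 and 5.84. Of 3 hematopoietic markers measured of 6, CD14 and SPI1 lay between 5.72 and 7.15 and CD68, a lysosomal protein found in many cell types, between 11.47 and 11.70. Their part in the results was not tested. In these bulk samples, a change in the share of cells in mitosis and a change in RNA per cell cannot be told apart. The study itself reported that LincIN knockdown did not significantly alter proliferation of MDA-MB-231-luc cells. It also reported increased G1/G0 arrest in MDA-MB-231 cells given LincIN siRNAs. How the values here relate to those assays was not tested.

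The promoters of the mitosis genes are shown first because they carry what these genes share in sequence. RefSeq promoters on GRCh38.p14, from 250 bases before the start to 50 bases after it, were matched by symbol for 42 of the 47 genes, which had 52 annotated starts. AURKA, PBK, TTK, BIRC5 and RACGAP1 were not matched. The CHR was searched as TTTGAA or TTCGAA and the CCAAT box as CCAAT, each on both strands. A CHR was present in 63.5% of the 52 promoters, against 16.4% of all 35116 promoters in the table, and a CCAAT box in 73.1%, against 34.6%. Both were present in 51.9% of the promoters of the mitosis genes, against 6.38% of all. E2F sites, searched as TTTCGCGC or TTTGGCGC, were present in 7.69%, against 1.15% of all. The mitosis genes were listed for their function, so these shares describe the list and say nothing about the hairpins.

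Each window below runs from 120 bases before an annotated start to 20 bases after it, in capitals for the CHR and CCAAT letters found on either strand (TTCAAA and ATTGG are the reverse forms). The first 5 genes are those with the lowest p with shRNA2 among genes with a promoter in the table, with CDK1 shown at both of its annotated starts, and the last 2 genes are those with the lowest fold changes with shRNA2.
HMMR, chr5:163460512-163460651, plus strand: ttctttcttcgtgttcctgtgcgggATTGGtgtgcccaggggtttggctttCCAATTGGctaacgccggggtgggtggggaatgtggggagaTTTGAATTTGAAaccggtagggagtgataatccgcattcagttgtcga
CDK1 (first start), chr10:60778211-60778350, plus strand: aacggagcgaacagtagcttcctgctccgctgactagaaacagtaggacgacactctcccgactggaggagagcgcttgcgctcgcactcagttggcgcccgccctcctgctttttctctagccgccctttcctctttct
CDK1 (second start), chr10:60778358-60778497, plus strand: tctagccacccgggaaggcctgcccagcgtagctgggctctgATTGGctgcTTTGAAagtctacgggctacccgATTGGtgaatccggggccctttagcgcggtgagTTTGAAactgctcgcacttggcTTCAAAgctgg
KIF4A, chrX:70289984-70290123, plus strand: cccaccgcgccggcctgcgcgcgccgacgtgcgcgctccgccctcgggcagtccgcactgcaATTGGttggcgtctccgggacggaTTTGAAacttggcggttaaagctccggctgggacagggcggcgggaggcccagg
KIF20B, chr10:89701470-89701609, plus strand: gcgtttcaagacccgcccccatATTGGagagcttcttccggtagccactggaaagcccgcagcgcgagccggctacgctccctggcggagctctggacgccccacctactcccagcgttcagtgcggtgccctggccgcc
NDC80, chr18:2571437-2571576, plus strand: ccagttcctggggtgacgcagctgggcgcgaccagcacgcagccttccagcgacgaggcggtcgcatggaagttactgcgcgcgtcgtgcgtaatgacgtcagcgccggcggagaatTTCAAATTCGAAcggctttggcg
CENPA, chr2:26785936-26786075, plus strand: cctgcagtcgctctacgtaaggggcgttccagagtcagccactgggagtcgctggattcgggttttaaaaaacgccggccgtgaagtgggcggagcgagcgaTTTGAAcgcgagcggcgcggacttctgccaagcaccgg
CENPI, chrX:101100938-101101077, plus strand: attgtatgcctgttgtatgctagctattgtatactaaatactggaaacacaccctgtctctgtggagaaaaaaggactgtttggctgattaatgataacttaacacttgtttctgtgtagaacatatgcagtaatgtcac

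The HMMR window holds 2 CHR elements side by side, downstream of 3 CCAAT matches of which a pair overlap. The window at the first start of CDK1 holds neither element, and the window at its second start holds 3 CHR elements and 2 CCAAT boxes. In KIF20B the window holds a CCAAT box and no CHR, although its full promoter of 300 bases holds 2. In KIF4A a single CCAAT box precedes a single CHR, and in NDC80 a pair of CHR elements lies at the start with no CCAAT box. CENPA, at the low end of the fold changes, has a CHR too, whereas the 300 bases of CENPI hold neither element. Over the matched mitosis genes, 44 CHR matches had a median position of -27 and 75 CCAAT matches a median of -75, in bases from each annotated start to the first base of the match.

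**Figure D1:**
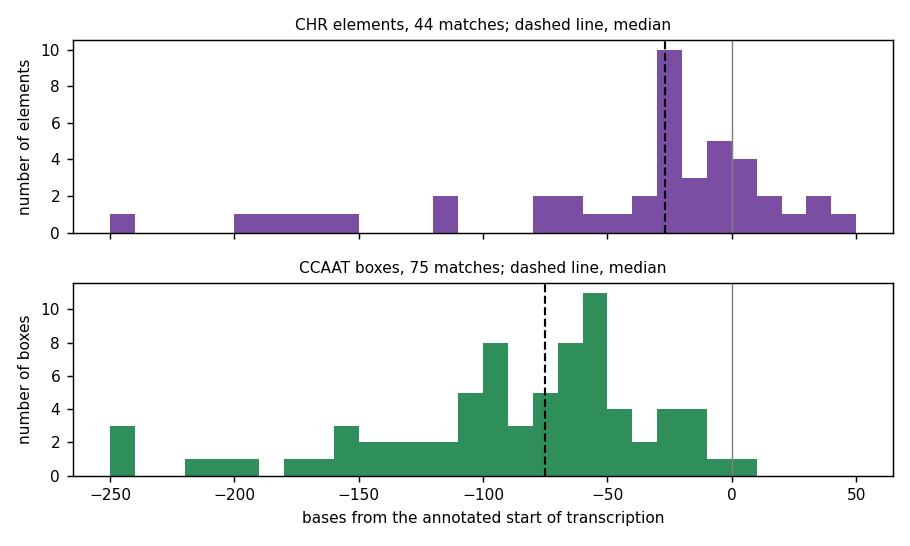
Positions of 44 CHR elements (top) and 75 CCAAT boxes (bottom) in the 52 promoters of the 42 mitosis genes matched to the RefSeq table, in bins of 10 bases, with the distance from the annotated start on the x axis and the number of matches on the y axis. The dashed medians stand at -27 and -75, so the CHR matches lie nearer the start.

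Signals of the mitosis genes were lower on the vector arrays than on the shRNA arrays. Relative to each gene's mean over the 6 arrays, the median of the 47 genes was -0.19 and -0.28 on the vector arrays, 0.15 and 0.06 on the shRNA1 arrays, and 0.07 and 0.13 on the shRNA2 arrays. Over all 16098 named probe sets the same medians lay between -0.04 and 0.09. A vector array gave the lowest of the 6 values for 40 of the 47 genes, 85.1%, against 35.9% of all named probe sets. An shRNA1 array gave the highest value for 31 genes, 66.0%, against 45.1% of all named probe sets, and an shRNA2 array for 11 genes, 23.4%, which is near the 21.9% of all named probe sets.

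**Figure D2:**
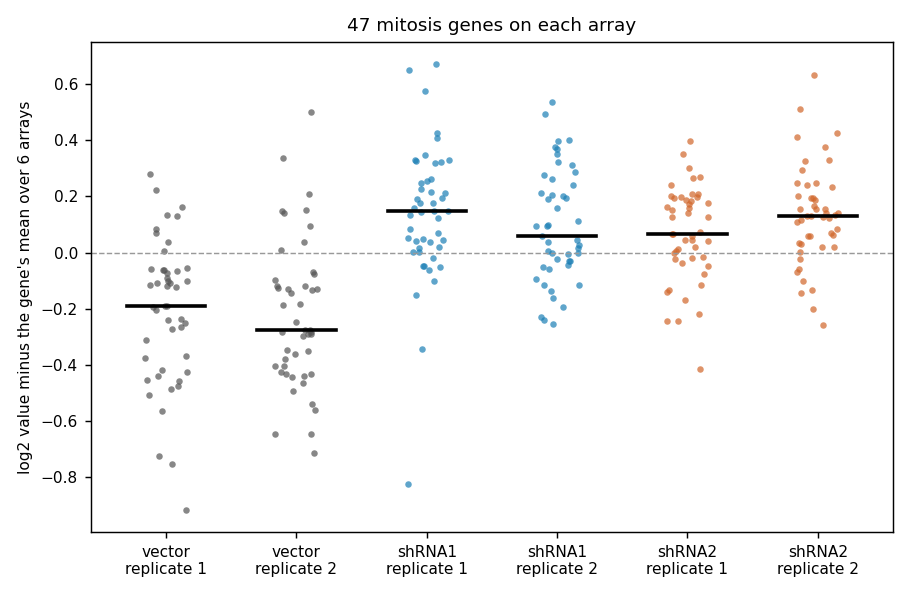
Each point is 1 of 47 mitosis genes on 1 array, plotted as its log2 value minus its mean over the 6 arrays, with the black bars at the medians. The medians are -0.19 and -0.28 for the vector arrays and lie between 0.06 and 0.15 for the 4 shRNA arrays.

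Fold changes are given as the labels name the arrays, with an shRNA value above the vector value as positive. The study's own list of changed genes counts the opposite way for the genes checked, so a reader who follows that list would turn each sign. With shRNA1, the median log2 fold change of the 47 genes was 0.37, and 42 were above 0 (89.4%), whereas the median over all named probe sets was 0.05 and 58.9% were above 0. With shRNA2 the median was 0.34 and 39 genes were above 0 (83.0%), against -0.04 and 44.1% over all named probe sets. In the brighter part of the named probe sets, where 46 of the 47 genes lie, the medians were 0.03 and -0.04. These are descriptions of the list, which was drawn up with results of these arrays known, and both comparisons use the same vector arrays.

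Few single genes passed the test across all named probe sets. At an adjusted p under 0.05 in limma, none of the 47 was called with shRNA1, where 0.497% of named probe sets were called higher and 1.37% lower. With shRNA2, TTK and PBK were called higher and none lower, where 1.07% of named probe sets were called higher and 1.50% lower. At an unadjusted p under 0.05 in either direction, 16 of the 47 genes passed with shRNA1, all of them higher, against 12.1% of named probe sets. With shRNA2 15 passed, again all higher, against 18.6%. Both shRNA1 arrays lay above both vector arrays for 30 genes and below them for 0, against 21.7% and 15.0% of named probe sets. For shRNA2 these counts were 29 and 1, against 21.6% and 30.6%. When replicate numbers entered the fit as a block, KIF4A was also called with shRNA1, and the count with shRNA2 went from 2 to 6, with HMMR, CDK1, NDC80 and KIF4A added. The block raised calls in general, to 1.02% of named probe sets called higher with shRNA1 and 3.15% with shRNA2. The pairing of replicate numbers was chosen from these data and the shRNA2 arrays hardly shared it, so blocked values are only an alternative.

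**Figure D3:**
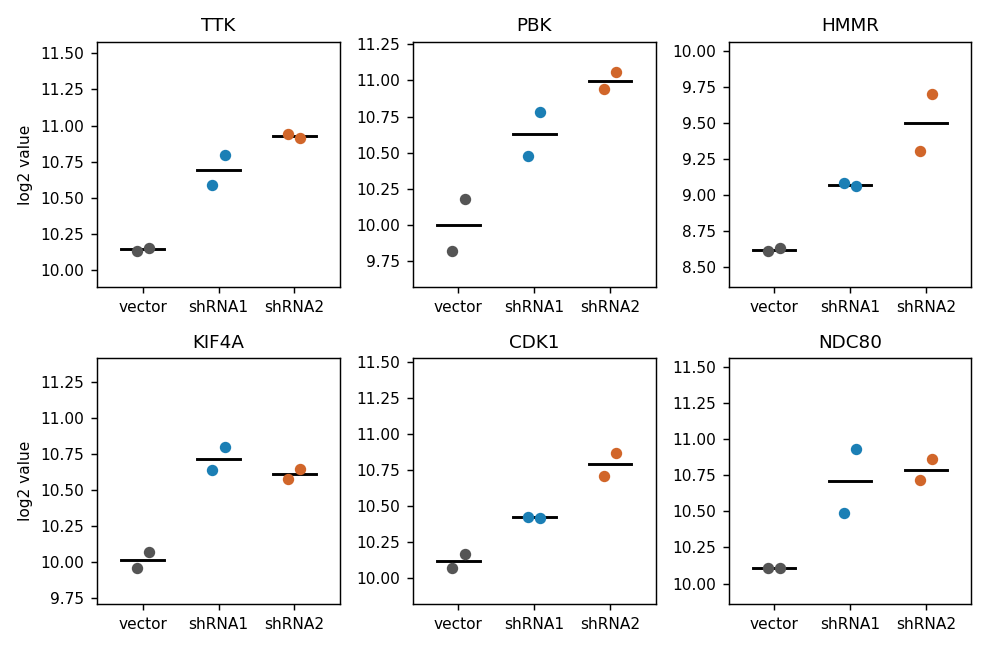
Log2 values of TTK, PBK, HMMR, KIF4A, CDK1 and NDC80 on the 6 arrays, by group on the x axis, with each array as a point and the group mean as a bar. All panels span the same number of log2 units but start at different values. In all 6 panels the 4 shRNA values lie above both vector values. These are the genes called with shRNA2 in the blocked fit, so their separation follows largely from that choice. Of all 47 genes, 30 with shRNA1 and 29 with shRNA2 lay above vector without overlap.

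The spindle checkpoint kinases all had positive fold changes. TTK, also named MPS1, is the kinase that starts checkpoint signalling at unattached kinetochores. It read 10.13 and 10.15 with vector, 10.59 and 10.80 with shRNA1, and 10.94 and 10.92 with shRNA2, so no group overlapped another. TTK rose with shRNA2 by a log2 fold change of 0.79 ± 0.15 (SE, n = 2 arrays a group; limma adjusted p = 0.0471), or 1.72-fold. With shRNA1 the difference was 0.55 ± 0.15 (adjusted p = 0.171). The call with shRNA2 was lost when either vector array or either shRNA2 array was left out, with an adjusted p of up to 0.350. BUB1 and BUB1B, kinases of the same checkpoint, differed from vector by 0.40 and 0.37 with shRNA1 and by 0.37 and 0.32 with shRNA2, with adjusted p between 0.358 and 0.586.

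PBK, a kinase active in mitotic cells, had the largest change of the mitotic kinases. It read 9.82 and 10.18 with vector, 10.48 and 10.78 with shRNA1, and 10.94 and 11.06 with shRNA2. The vector arrays were again the lowest and the shRNA2 arrays the highest. PBK rose with shRNA2 by 1.00 ± 0.19 (adjusted p = 0.0465), a 2.00-fold change, and with shRNA1 the difference was 0.63 ± 0.19 (adjusted p = 0.211). Leaving out either vector or either shRNA2 array ended this call too, with an adjusted p of up to 0.361. NEK2, which acts in centrosome separation, read 9.78 and 9.30 with vector, 10.17 and 9.68 with shRNA1 and 10.05 and 10.09 with shRNA2, so the shRNA1 arrays overlapped the vector arrays. AURKA, the kinase of the spindle poles, differed by 0.35 with shRNA1 and 0.41 with shRNA2, and its vector arrays lay below all shRNA arrays, whose groups overlapped. MELK, a kinase abundant in dividing tumor cells, differed by 0.29 and 0.17, with vector arrays below all shRNA arrays. PLK1, which acts throughout mitosis, differed by 0.10 and 0.03, with 95% intervals from -0.25 to 0.44 and from -0.31 to 0.38.

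Among the regulators of mitotic entry, CDK1 was highest with shRNA2. It read 10.07 and 10.17 with vector, 10.42 and 10.42 with shRNA1, and 10.71 and 10.87 with shRNA2. Its groups stood in that order with no overlap, with log2 fold changes of 0.30 ± 0.15 with shRNA1 (adjusted p = 0.497) and 0.67 ± 0.15 with shRNA2 (adjusted p = 0.0678, blocked 0.0338). CCNB1, which encodes cyclin B1, the main partner of CDK1 in mitosis, read 10.10 and 11.03 with vector, 11.07 and 11.29 with shRNA1, and 11.23 and 11.40 with shRNA2. The first vector array was 0.93 below the second, which is more than the difference of 0.62 ± 0.29 with shRNA1 and of 0.75 ± 0.29 with shRNA2. CCNA2, which encodes cyclin A2, read 11.94 and 11.77 with vector, 12.45 and 12.29 with shRNA1, and 12.11 and 12.20 with shRNA2, with the highest values on the shRNA1 arrays. CDC25C, a phosphatase that activates CDK1, had fold changes of -0.07 and 0.42, with overlapping groups in both comparisons.

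CDC20 and PTTG1 read higher with shRNA1 than with shRNA2 without overlap, but neither difference was called. The same order without overlap held for 32.2% of all named probe sets. CDC20 activates the anaphase promoting complex, the ubiquitin ligase that ends mitosis, and read 11.87 and 11.74 with vector, 12.36 and 12.12 with shRNA1, and 11.71 and 11.79 with shRNA2. The shRNA1 arrays differed from vector by 0.43 ± 0.16 (adjusted p = 0.319) and those of shRNA2 by -0.06 ± 0.16 (adjusted p = 0.902). PTTG1, or securin, which holds separase inactive, showed a like order, with 7.11 and 7.47 with vector, 7.53 and 7.78 with shRNA1, and 7.14 and 7.24 with shRNA2. CDCA3, which promotes entry into mitosis, had fold changes of 0.18 and -0.06 with overlapping groups.

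All 9 kinesins on the list were measured, and all 9 had positive fold changes with each hairpin. The kinesins are motor proteins that slide, shorten or cross-link microtubules of the spindle. The median over the 9 was 0.45 for shRNA1 and 0.49 for shRNA2, on the log2 scale. KIF4A, which shapes the central spindle, read 9.96 and 10.07 with vector, 10.64 and 10.80 with shRNA1, and 10.58 and 10.64 with shRNA2. The shRNA arrays all lay above vector, at 0.70 ± 0.15 for shRNA1 (adjusted p = 0.0813, blocked 0.0432) and 0.59 ± 0.15 for shRNA2 (adjusted p = 0.0916, blocked 0.0492). KIF20B, a kinesin of late mitosis and cytokinesis, read 10.58 and 10.81 with vector against 11.34 and 11.29 with shRNA1 and 11.28 and 11.25 with shRNA2. KIF23, the motor of centralspindlin, had the largest fold change of the 47 with shRNA1, 0.73 ± 0.26, but its vector arrays, at 10.68 and 11.36, stood 0.68 apart and its adjusted p was 0.304. KIF11, the motor that separates the spindle poles, differed by 0.45 and 0.44, KIF15 by 0.50 and 0.56 and KIF18A by 0.33 and 0.49. The fold changes of KIF2C, KIF20A and KIF14 lay between 0.08 and 0.40.

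Among the proteins of the spindle microtubules, HMMR had the largest fold change with shRNA2 and PRC1 with shRNA1, at 0.54 ± 0.17 (adjusted p = 0.236). HMMR encodes a hyaluronan receptor that also binds spindle microtubules, and read 8.61 and 8.63 with vector, 9.08 and 9.06 with shRNA1, and 9.31 and 9.70 with shRNA2. The groups did not overlap, and the arrays of shRNA1 stood 0.45 ± 0.17 above vector (adjusted p = 0.354) and those of shRNA2 0.88 ± 0.17 above it (adjusted p = 0.0511). That last value was below the threshold in 6 of 9 other settings, over which it ran from 0.0212 to 0.350, and in none of the 6 fits that left out an array, where it ran from 0.0642 to 0.395. PRC1, which bundles microtubules between the separating chromosomes, read 11.12 and 11.03 with vector, 11.44 and 11.80 with shRNA1, and 11.59 and 11.63 with shRNA2. NUSAP1, which cross-links spindle microtubules, differed by 0.33 and 0.49 without overlap of the groups. The smaller fold changes of CKAP2, CKAP5 and GTSE1 lay between -0.04 and 0.35.

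Kinetochore and centromere genes held both high and low members. NDC80, the core of the complex that binds microtubules, read 10.11 and 10.11 with vector, 10.49 and 10.93 with shRNA1, and 10.71 and 10.86 with shRNA2. The vector arrays were below the others, at 0.60 ± 0.19 with shRNA1 (adjusted p = 0.227) and 0.68 ± 0.19 with shRNA2 (adjusted p = 0.112, blocked 0.0468). SGO2, a protector of cohesion, had fold changes of 0.58 ± 0.30 and 0.68 ± 0.30, with replicates up to 0.83 apart. CENPA, the histone variant that marks centromeres, was the only 1 of the 47 genes with both shRNA2 arrays below both vector arrays, at 9.38 and 9.52 against 9.71 and 9.76. Its fold change was -0.28 ± 0.15 with shRNA2 (adjusted p = 0.370) and -0.05 with shRNA1. HJURP, the chaperone that loads CENPA, differed by 0.37 with shRNA1 and 0.11 with shRNA2. CENPI, a protein of the inner kinetochore, read 10.97 and 10.54 with vector, 11.51 and 10.95 with shRNA1, and 10.42 and 10.63 with shRNA2. Its replicates differed by 0.43 with vector, 0.56 with shRNA1 and 0.21 with shRNA2. CENPK and SGO1 had fold changes from -0.00 to 0.39.

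The chromosomal passenger complex corrects faulty attachments and guides cytokinesis. AURKB, its kinase, read 10.97 and 11.24 with vector, 10.94 and 11.35 with shRNA1, and 11.01 and 11.02 with shRNA2, with overlap of all groups. BIRC5, or survivin, read 9.26 and 10.33 with vector, 9.00 and 10.32 with shRNA1, and 10.03 and 10.01 with shRNA2, so its replicates stood up to 1.32 apart and its fold changes of -0.14 ± 0.47 and 0.23 ± 0.47 carry no direction. The targeting subunit CDCA8 had vector arrays below all shRNA arrays, with fold changes of 0.45 and 0.37, and the hairpin groups overlapped. Of the cytokinesis genes, ECT2 had overlapping groups, with fold changes of -0.10 and 0.07. RACGAP1, the partner of KIF23 in centralspindlin, read 6.45 and 6.43 with vector, 6.78 and 6.85 with shRNA1, and 6.56 and 6.30 with shRNA2. With shRNA2 its fold change of -0.01 turned positive, at 0.016 and 0.030, when the arrays were centred on their medians or normalized again by quantiles.

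The 4 measured genes of chromosome structure were above vector with no overlap of the arrays, with each hairpin. SMC4 and SMC2, the ATPases of condensin, had fold changes of 0.44 and 0.22 with shRNA1 and 0.34 and 0.26 with shRNA2. TOP2A, the topoisomerase that untangles sister chromatids, read 12.39 and 12.06 with vector, 12.76 and 12.53 with shRNA1, and 12.63 and 12.66 with shRNA2. MKI67, the gene of the proliferation marker Ki-67, had fold changes of 0.17 and 0.12, with 95% intervals from -0.16 to 0.50 and from -0.21 to 0.44.

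**Figure D4:**
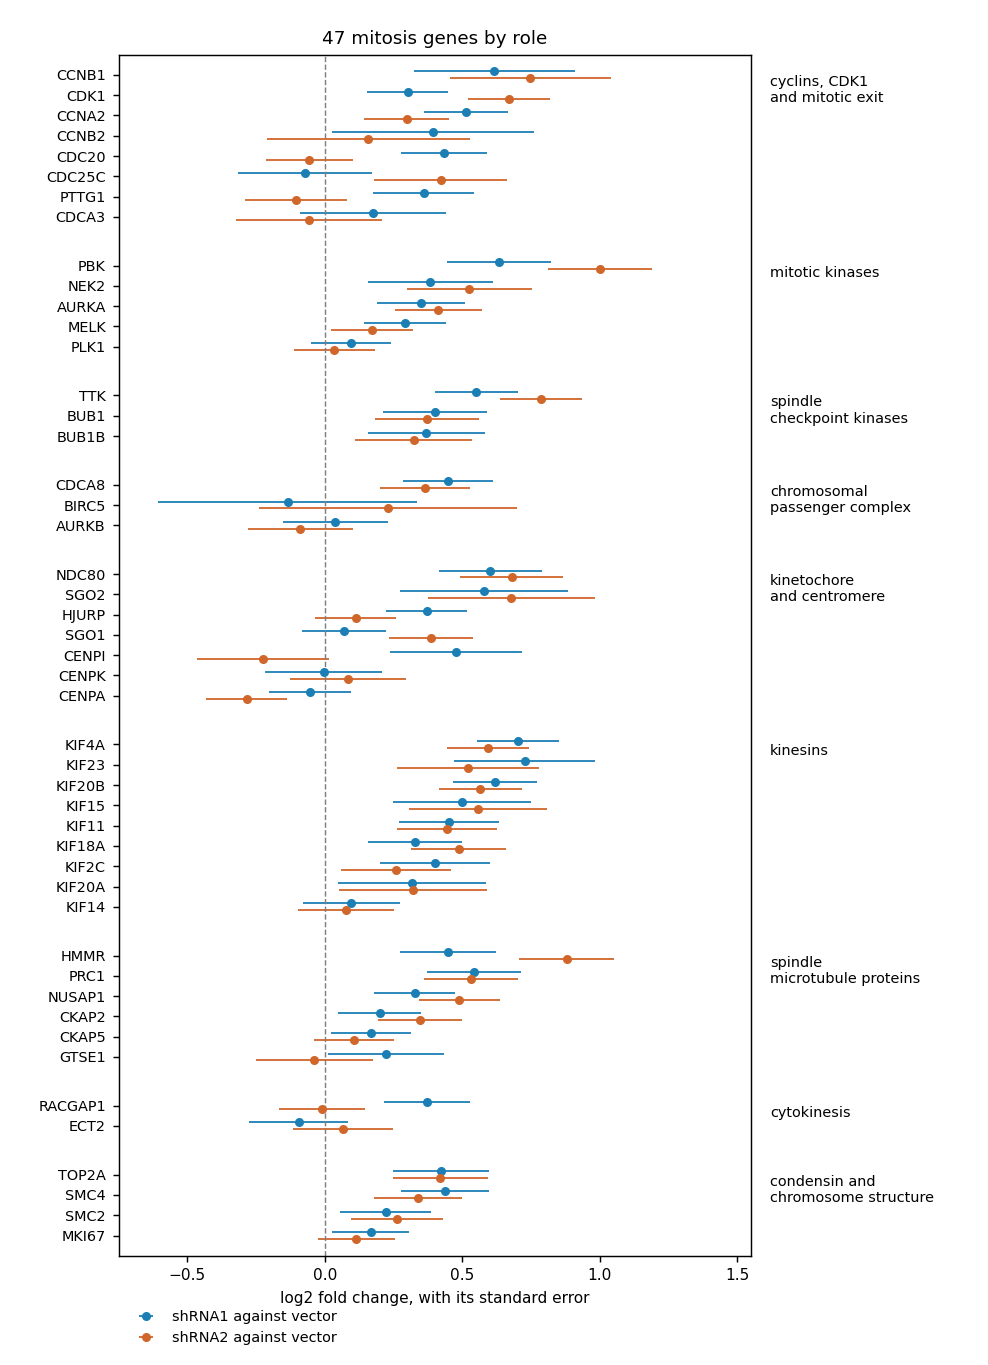
Log2 fold changes against vector of the 47 mitosis genes, grouped by role, with shRNA1 in blue, shRNA2 in orange and bars of 1 standard error from limma (n = 2 arrays a group). Most points lie to the right of 0, with all 9 kinesins among them, and CENPA, at -0.28 with shRNA2, lies farthest to the left.

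The hairpins were also set against each other. Over the 47 genes the median log2 difference of shRNA2 from shRNA1 was -0.02, with 20 above 0, against -0.08 over all named probe sets. None of the 47 was called at an adjusted p under 0.05, where 0.00621% of all named probe sets were. At an unadjusted p under 0.05 in either direction, 6 genes passed, 2 of them higher with shRNA2 and 4 lower, against 15.6% of named probe sets. The groups did not overlap for 9 genes higher and 13 lower, against 18.0% and 32.2%. HMMR and CDK1 were the 2 higher genes, at 0.43 ± 0.17 (adjusted p = 0.301) and 0.37 ± 0.15 (adjusted p = 0.299). The 4 lower ones were CENPI at -0.70 ± 0.24, CDC20 at -0.49 ± 0.16, PTTG1 at -0.46 ± 0.18 and RACGAP1 at -0.38 ± 0.16, with adjusted p from 0.222 to 0.304. For TTK the difference was 0.24 with a 95% interval from -0.12 to 0.59, and for KIF4A it was -0.11 with an interval from -0.46 to 0.24, so differences of either sign remained possible.

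Differences between replicates ran alike in the vector and shRNA1 groups. The difference of replicate 2 from replicate 1 had an SD over the 47 genes of 0.420 with vector, 0.383 with shRNA1 and 0.108 with shRNA2. Across these genes, the vector and shRNA1 differences correlated at r = 0.823 (Spearman's rho 0.798, n = 47 genes, which are not independent replicates), whereas over all 16098 named probe sets r was 0.626. With shRNA2, the vector differences correlated at 0.055 over the 47 genes. BIRC5 and CCNB2 stood at the ends. The second cyclin B gene, CCNB2, read 10.88 and 9.95 with vector, 11.25 and 10.37 with shRNA1, and 10.48 and 10.66 with shRNA2, so that the replicate numbers differed by more than the groups. Within replicate number 1, the median of the 47 genes against vector was 0.37 with shRNA1 and 0.25 with shRNA2, and within number 2 it was 0.36 and 0.40. In both replicate numbers, 42 genes were above vector with shRNA1, and 38 and 40 with shRNA2. Over all named probe sets the shRNA1 median was 0.10 within replicate number 1 and -0.007 within number 2. The shRNA2 median was -0.04 within each.

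**Figure D5:**
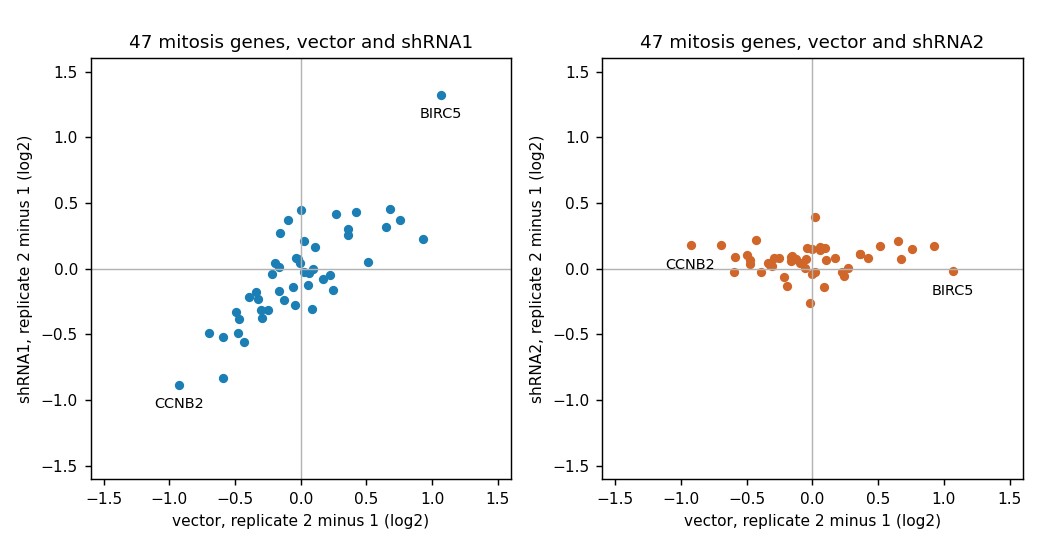
Replicate 2 minus replicate 1, in log2 units, for 47 mitosis genes, with vector on both x axes and shRNA1 (left) or shRNA2 (right) on the y axis. On the left the points follow a rising line from CCNB2 to BIRC5 (r = 0.823), and on the right they stay close to 0 on the y axis (SD 0.108).

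Other genes of the cell cycle were read from lists by function. Of 23 measured genes of DNA replication and S phase, the median was 0.25 with shRNA1 and 0.30 with shRNA2, and 19 and 14 were above 0. These are 82.6% and 60.9%, against 58.9% and 44.1% of all named probe sets. Among those with negative fold changes were CDC6, at -0.49 with shRNA1 and -0.50 with shRNA2, and GINS4, at -0.50 and -0.82. MCM7, a subunit of the replicative helicase, read 10.59 and 10.62 with vector, 11.37 and 11.29 with shRNA1, and 11.30 and 11.41 with shRNA2. It was the only gene of this list called, with shRNA2, at 0.75 ± 0.14 (adjusted p = 0.0471), beside 0.73 with shRNA1 (adjusted p = 0.0624, blocked 0.0398). The call with shRNA2 was lost when any of the 6 arrays was left out, with an adjusted p of up to 0.386.

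Further kinetochore and checkpoint genes, 24 measured, had medians of 0.08 and 0.09 and none was called without the block. MAD2L1, the checkpoint protein that binds CDC20, read 8.88 and 9.41 with vector, 9.62 and 9.87 with shRNA1, and 10.07 and 10.24 with shRNA2, at 1.01 ± 0.21 with shRNA2 (adjusted p = 0.0593, blocked 0.0113). CENPT and CENPO differed the other way with shRNA2, at -0.78 ± 0.16 (limma adjusted p = 0.0547) and -0.65 ± 0.15 (0.0692). With shRNA1 they differed by -0.32 and -0.37. Of the 24 genes, 13 were above 0 with shRNA2 and 11 below. Of 20 further genes of the spindle, centrosome and cytokinesis, with medians of 0.19 and 0.08, DEPDC1 was called with shRNA2, at 0.80 ± 0.15 (adjusted p = 0.0459), a call that was also lost without any 1 of the arrays (up to 0.355). TROAP, which encodes a protein of spindle assembly, differed between the hairpins by -0.93 ± 0.16, shRNA2 against shRNA1 (adjusted p = 0.0832, blocked 0.0296).

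Of the anaphase promoting complex, 17 genes were measured, with medians of 0.10 and -0.03. Its subunit ANAPC7 differed by -0.89 ± 0.24 with shRNA2 (adjusted p = 0.108, blocked 0.0292), and its activator FZR1 by 0.66 ± 0.17 with shRNA1 (adjusted p = 0.155). The 12 genes of cohesin and separase had medians of 0.16 and 0.09, led by ESCO1, which acetylates cohesin, at -0.57 with shRNA1. For 15 other genes of G2 and M entry the medians were 0.25 and 0.10, with CDCA2 at 0.55 with shRNA2. None of these genes was called in either direction without the block.

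Of 18 regulators of cell cycle transcription, with medians of 0.07 and 0.16, none was called. Of the 18, 11 were above 0 with shRNA1 and 12 with shRNA2. FOXM1 differed by 0.18 with shRNA1 and -0.25 with shRNA2, and MYBL2 by 0.60 and 0.58. E2F7 differed in the other direction with both hairpins, by -0.60 ± 0.20 with shRNA1 and -0.57 ± 0.20 with shRNA2. E2F1 differed by 0.67 ± 0.19 with shRNA1 (adjusted p = 0.190) and TFDP2, a partner of the E2F factors, by 0.81 ± 0.25 with shRNA2 (adjusted p = 0.152). The 9 measured genes of CDK inhibitors and G1 regulators had medians of -0.00 and -0.09, with CCND1, or cyclin D1, at -0.41 with shRNA2. The only CDK inhibitor among them was CDKN2A, which was dim, between 5.49 and 5.77 on the 6 arrays. CDKN1A, the gene of p21, had no named probe set, so these medians say little about CDK inhibitors. The 7 measured housekeeping genes had medians of 0.18 and 0.12, with B2M highest at 0.92 and 0.80. Those medians lie below those of the 47 mitosis genes, 0.37 and 0.34, but above those of all named probe sets, and their part in the difference was not tested.

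The fold changes were also read by promoter element. The 30 measured genes with a CHR had a median of 0.37 with either hairpin, and the 12 with a promoter but no CHR had medians of 0.37 with shRNA1 and 0.28 with shRNA2. The ranges ran from -0.10 to 0.73 and from -0.28 to 0.88 with a CHR, and from -0.00 to 0.62 and from -0.23 to 0.75 without. No test was run on this difference.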

How the data were processed

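Gene expression was measured on 6 arrays, 2 each for vector, shRNA1 and shRNA2. The submitters' processing notes list RMA and the Affymetrix Expression Console but no versions. The deposited values are log2 signals that the authors corrected for background, normalized by quantiles and summarised per probe set. The genome build is not given in the sources used here. Of 53617 probe sets, the 16098 paired with exactly 1 gene symbol were tested.

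The 3 group means were fitted together with limma 3.58.1 (R 4.3.3; lmFit, eBayes), with Benjamini-Hochberg adjustment across the 16098 and a threshold of 0.05. Standard errors come from this fit. Promoters came from the RefSeq table for GRCh38.p14. The fit was tested on simulated data: of log2 changes of 1, 62.7% were found with shRNA1 and 61.2% with shRNA2.

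For the block, replicate numbers were read as pairs because same-numbered vector and shRNA1 arrays deviated together, at a correlation of 0.626 over all named probe sets. The shRNA2 arrays hardly shared this, at 0.145 with vector and 0.150 with shRNA1, and at 0.055 and -0.040 over the 47 genes. The series text speaks of separate experiments without tying a number to them. The pairing was thus chosen from these data, and the blocked values, above all those with shRNA2, are only an alternative. Named genes are those called, the 3 with the largest mean change in each of 9 roles, the 2 lowest in each of 3 comparisons, and the leading genes of each other list, with further ones chosen after their values were seen. Members and lists were chosen with earlier results of these data known. Figures used Matplotlib 3.10.9.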

Additional observations from a re-analysis of the deposited data

How the results depend on the processing

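The calls with shRNA2 depended on the settings. The count of mitosis genes called, 2, became 0 with all probe sets tested, 0 with the methods' t-test and 6 once replicate numbers were blocked, and it ran from 0 to 2 when each array was left out in turn. With shRNA1 the count of 0 became 1 with the block. Among all named probe sets the block raised the share called higher too, from 0.497% to 1.02% with shRNA1 and from 1.07% to 3.15% with shRNA2. PBK lost its call with all probe sets (adjusted p = 0.115), quantile normalization (0.0535) and the methods' t-test (0.325), and TTK with all probe sets (0.115) and the methods' t-test (0.189). MCM7 and DEPDC1 lost theirs with all probe sets (0.115 and 0.112), the methods' t-test (0.242 and 0.274) and only the 4 arrays compared (0.0571 for both). Among the genes picked by the naming rule, the block changed no call beyond those given.

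The medians moved less. With shRNA1 the median ran from 0.30 to 0.38 over the arrays left out. With shRNA2 it ran from 0.26 to 0.36, and it was 0.25 and 0.40 within replicate numbers 1 and 2, settings added after the data were seen. For shRNA2 against shRNA1 it was 0.038 with arrays centred on their medians, ran from -0.075 to 0.042 over the arrays left out, and was -0.087 and 0.089 within the replicate numbers.

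Some signs turned. With shRNA2, RACGAP1 was at 0.016 with centred arrays, at 0.030 with quantile normalization and from -0.14 to 0.12 with arrays left out. With arrays left out, AURKB ranged from -0.17 to 0.25, BIRC5 from -0.80 to 0.53, CENPA from -0.11 to 0.0090 and ECT2 from -0.25 to 0.061 with shRNA1, and AURKB from -0.22 to 0.045, BIRC5 from -0.30 to 0.76, CDC20 from -0.12 to 0.0065 and ECT2 from -0.087 to 0.22 with shRNA2. Over all settings, shRNA2 against shRNA1 spanned both signs for many named genes. Among them were SGO2 (-0.32 to 0.52), BIRC5 (-0.30 to 1.03), NEK2 (-0.10 to 0.38), NDC80 (-0.15 to 0.30), AURKB (-0.34 to 0.08) and BUB1 (-0.22 to 0.16). Against vector, 14 values of genes picked by the naming rule turned sign under these settings, and turns between the hairpins were not counted. With 2 arrays a group, changes of 0.5 on the log2 scale were rarely found in simulated data, at 0% with shRNA1 and 2.99% with shRNA2. In the same simulation 9 and 12 unchanged probe sets were called. Its noise had no replicate structure, and whether the uncalled differences described here are real was not tested.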
